A study of Mus musculus with 96 samples.

Results

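Zfp42, Esrrb, Tfcp2l1, Nr0b1, Nr5a2 and Tbx3 encode 6 transcription factors of the naive pluripotency circuit, and their transcripts were followed across single mouse embryonic stem (ES) cells. The 6 genes were chosen by symbol out of 36205 genes in the count table, and each was found there under 1 Ensembl identifier. All cells were wild-type E14 ES cells, a line for which the labels give a C57BL/6 background, grown in serum with leukaemia inhibitory factor (LIF), the cytokine that holds mouse ES cells in self-renewal. Each cell was lysed singly, its messenger RNA was parted from its DNA by the G&T-seq procedure, and the cDNA was sequenced. Of the 96 wells in the series, 76 are labelled serum/LIF, 16 are labelled 2i and 4 are controls with no cell. Counts were given for 61 of the 76 serum/LIF wells, and all 61 were used. No source used here says why the other serum/LIF wells have none or how they were chosen. The remaining wells were not analysed here. The labels name no separate cultures, so the 61 cells are 1 sample of 1 condition: spreads are between cells, and no test between conditions was made.

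Total counts on genes ranged from 2417702 to 6787261 per cell (median 4244480), and 5317 to 10032 genes had a count in a cell. The ES cell identity of the wells was checked with Pou5f1 (OCT4), which had counts in 61 of 61 cells, Sox2, in 54 cells, and Nanog, in 47 cells. Markers of other lineages were mixed. A level of 10 counts or more in 10 cells or more was reached by 4 of 7 trophectoderm genes (Cdx2, detected in 18 cells, Eomes in 25, Gata3 in 20 and Tfap2c in 23), 2 of 7 neurectoderm genes (Nes in 47 cells and Pax6 in 16), 2 of 9 primitive endoderm genes (Dab2 in 20 cells and Col4a1 in 18), and by none of 8 fibroblast and none of 8 two-cell-like genes. Summed over the list, the range per cell was 0 to 590 CPM (counts per 1000000 counts of the cell) for trophectoderm, 0 to 587 for neurectoderm, 0 to 213 for primitive endoderm, 0 to 213 for fibroblast and 0 to 17.8 for two-cell-like genes. Sox1, Hes5 and Neurog2 of neurectoderm, Elf5 of trophectoderm and Zscan4d, Tcstv1, Tcstv3 and Zfp352 of two-cell-like cells were at 0 in every cell. Chromosome 14 took a low share of counts in 7 cells (B05, B09, E01, F01, F07, H03 and H10), at 1.32% to 2.45% against at least 2.72% in every other cell. This limit, 0.85 of the median share of 3.06%, was set after the shares had been seen. Since 6 of these 7 cells also had high Zfp42 counts, the correlations of the factors with one another and those of the leading list genes are also given without them.

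In mouse ES cells naive pluripotency rests on a small set of factors that keep one another switched on around the OCT4 and SOX2 core. LIF acts through STAT3 and favours Tfcp2l1 among others, whereas TCF7L1 (TCF3) and signalling by fibroblast growth factor (FGF) through ERK hold the circuit back, and Esrrb is a well-known target of TCF7L1 repression. In serum/LIF cultures several of these factors are known to differ from cell to cell, and Zfp42, which encodes the zinc finger protein REX1, is a common reporter of the naive state. Esrrb and Nr5a2 encode orphan nuclear receptors that bind related DNA half-sites. Nr0b1 encodes DAX1, a nuclear receptor family member without the classical DNA-binding domain that acts as a co-regulator. Tfcp2l1 encodes a factor of the CP2 family, and Tbx3 a T-box factor linked to the LIF and phosphoinositide 3-kinase branch.

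The 250 bases before the transcription start are shown for Zfp42, whose window held the most motif matches, and for Esrrb and Nr0b1, the pair with the highest correlation over cells, from RefSeq on GRCm38.p6, 5′ to 3′ on the gene's strand. Capitals mark matches, on either strand, to the letters of the OCT4 octamer, the KLF box or the STAT element described after them.

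Zfp42, chr8:43307010-43307259, minus strand: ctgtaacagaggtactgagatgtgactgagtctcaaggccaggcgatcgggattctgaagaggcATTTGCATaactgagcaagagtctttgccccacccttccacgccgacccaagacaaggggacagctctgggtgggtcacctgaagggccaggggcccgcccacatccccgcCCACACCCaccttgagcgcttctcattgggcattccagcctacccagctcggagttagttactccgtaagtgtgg

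Esrrb, chr12:86360867-86361116, plus strand: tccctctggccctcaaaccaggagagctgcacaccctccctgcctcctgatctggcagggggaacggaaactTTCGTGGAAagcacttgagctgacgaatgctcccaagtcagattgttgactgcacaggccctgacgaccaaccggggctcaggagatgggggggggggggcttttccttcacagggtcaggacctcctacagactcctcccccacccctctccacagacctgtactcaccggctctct

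Nr0b1, chrX:86191525-86191774, plus strand: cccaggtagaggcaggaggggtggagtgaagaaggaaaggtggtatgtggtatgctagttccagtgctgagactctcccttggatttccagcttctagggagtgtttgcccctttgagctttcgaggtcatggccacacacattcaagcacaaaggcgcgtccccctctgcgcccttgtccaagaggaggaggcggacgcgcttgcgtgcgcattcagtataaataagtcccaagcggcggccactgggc

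The table gave promoters of 300 bases for 5 of the 6 genes, in 7 windows, since Esrrb and Nr5a2 have more than 1 start. The octamer ATTTGCAT starts at position -186 of Zfp42 and was found in 1.74% of all 32851 promoters of that length. The KLF box CCACACCC starts at -75 of Zfp42 and was found in 3.56% of promoters. The STAT letters TTCNNNGAA start at -178 of the first Esrrb window and were found in 8.30% of promoters. The SOX letters CATTGT, found in 12.6% of promoters, start at +33 of that Esrrb window, beyond the bases shown. The GC box GGGCGG occurs at -91 and -79 of Zfp42, on the other strand, and in 35.7% of promoters. No match was found in any of the 7 windows for TCAAGGTCA, the extended half-site of ESRRB and NR5A2, nor for AAGGTCA, its core, TCACACCT (T-box), GCCATNTT (YY1 and REX1) or CTTTGAT (TCF). CpG pairs numbered 21 in the Tfcp2l1 window, 14 in Nr0b1 and 11 in Zfp42, 7 in each Esrrb window, and 2 and 7 in the Nr5a2 windows, against a median of 7 over all promoters. The motifs were chosen after the expression values had been seen, and the matches describe the letters in the windows and say nothing of binding.

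Expression of all 6 factors was patchy: each was absent from the counts of many cells and high in a few. Zfp42 had at least 1 count in 42 of 61 cells, Tfcp2l1 in 39, Esrrb in 18, Nr5a2 in 18, Nr0b1 in 14 and Tbx3 in 13. With at least 10 counts asked for, the numbers were 33 cells for Zfp42, 36 for Tfcp2l1, 12 for Esrrb, 12 for Nr5a2, 13 for Nr0b1 and 9 for Tbx3. A count of 0 allows a level of up to 0.442 to 1.24 CPM, from 3 counts of the cell's total and for counting error only. A 0 may also be a transcript that was present and not captured.

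**Figure D1:**
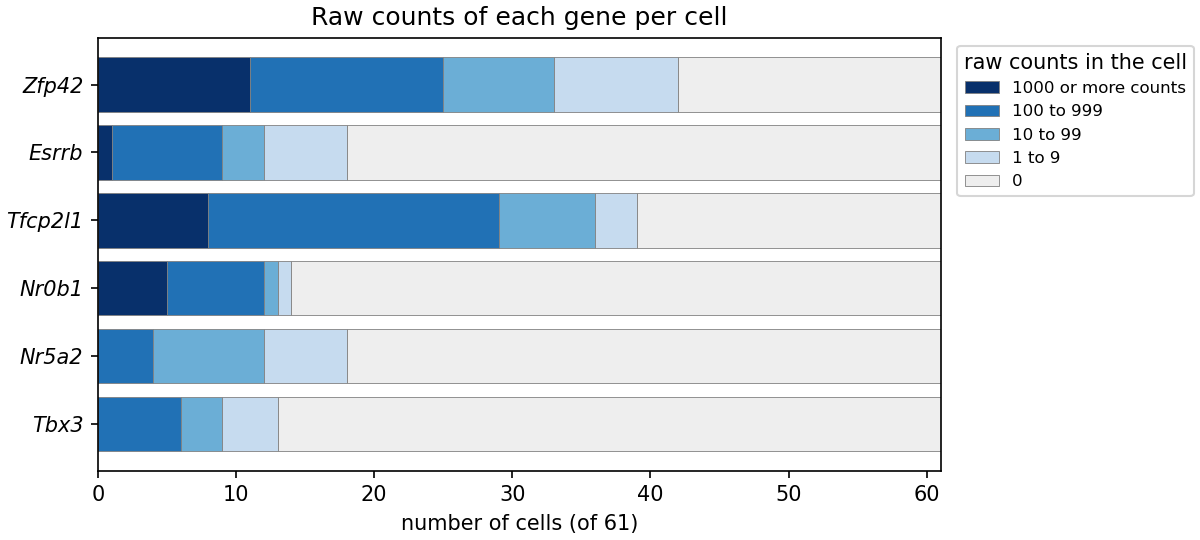
Number of cells (of 61) by the raw count of each gene in the cell, from 1000 or more counts (dark) to 0 (grey). Zfp42 had 1000 or more counts in 11 cells and Tfcp2l1 in 8 cells, whereas Nr0b1 was at 0 in 47 cells and Tbx3 in 48 cells.

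Zfp42 (ENSMUSG00000051176) lies on chromosome 8 at 43295063 to 43306980 of GRCm38, on the minus strand. Its lowest cell had 0, the median cell 2.82 and the highest cell, C07, 1755 CPM; the mean was 243 ± 520 CPM (SD over 61 cells). Above 10 CPM its values parted at 1 wide gap, between 139 CPM in H09 (650 counts) and 483 CPM in F07 (1397 counts), which is 1.79 on the log2 scale against 0.88 for the next widest. The gap, which was sought after the values had been seen, left 11 cells above it (B05, B09, B10, C02, C05, C07, D05, E01, F07, H03 and H10) and 50 below. Zfp42 thus ran from 0 through a continuous low range to a small set of cells with 1397 to 7400 counts.

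Tfcp2l1 (ENSMUSG00000026380), on chromosome 1 at 118627945 to 118685168, was the other widely detected gene. Its detection was uneven over the plate, in 26 of 33 cells of rows A to D and 13 of 28 cells of rows E to H. It had 0 CPM in the lowest cell, 12 in the median cell and 1089 in C07, with a mean of 117 ± 247 CPM (SD over 61 cells). Its 5 highest cells, which also include H03 (1009 CPM), C02 (888 CPM), B09 (862 CPM) and E01 (570 CPM), held 62% of its summed CPM. All 5 lie above the Zfp42 gap, but of the 36 cells with at least 10 counts of Tfcp2l1 only 10 did, and F07, above the gap, had none. Tfcp2l1 was thus also present in many cells with little or no Zfp42, such as C09 at 334 CPM and G09 at 218 CPM, both with a Zfp42 count of 0.

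Esrrb (ENSMUSG00000021255), on chromosome 12 at 86361117 to 86521628, had a median of 0 and a mean of 22.3 ± 62.6 CPM (SD over 61 cells). Its highest cells were D05 with 345 CPM, B05 with 218 CPM and C07 with 187 CPM. Of the 12 cells with at least 10 counts of Esrrb, 10 were above the Zfp42 gap, and the others were F01 (30.7 CPM) and B02 (8.95 CPM). The 11th cell above the gap, E01, had 6 counts of Esrrb beside 7400 of Zfp42. Esrrb counts therefore lay nearly wholly in the cells with the most Zfp42, more so than those of any other factor here.

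Nr0b1 (ENSMUSG00000025056), on chromosome X at 86191764 to 86195947, had a median of 0 and a mean of 43.9 ± 126 CPM (SD over 61 cells). Its highest cells were F07 with 698 CPM, D05 with 459 CPM, B10 with 359 CPM, C02 with 340 CPM and H10 with 271 CPM. Of the 13 cells with at least 10 counts, 8 were above the Zfp42 gap, and B09, C07 and E01 above the gap had 0. The cells D06, E07, F01, G02 and H02 had Nr0b1 without being above the gap, and F07, its highest cell, had the highest mitochondrial share of counts, 4.45%.

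Nr5a2 (ENSMUSG00000026398), on chromosome 1 at 136842571 to 136960448, was low, with a mean of 7.13 ± 32.1 CPM (SD over 61 cells). A single cell, B09 with 243 CPM, held 56% of its summed CPM, and the next was C05 with 52.7 CPM. Of the 12 cells with at least 10 counts, 8 were above the Zfp42 gap, and B01, C01, D09 and D10 were below it.

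Tbx3 (ENSMUSG00000018604), on chromosome 5 at 119670669 to 119684724, had a mean of 4.45 ± 13.0 CPM (SD over 61 cells) and at most 59.4 CPM, in H01. Only 9 cells reached 10 counts, so Tbx3 alone of the 6 genes fell short of the filter used for the table, at least 10 counts in at least 10 cells, which 10868 genes passed. Of these 9 cells, 5 were above the Zfp42 gap and 4 (D06, D10, F01 and H01) below, and 6 of the 11 cells above the gap had 0. The antisense gene Tbx3os1, which overlaps Tbx3, had 10 counts in 3 cells; no source used here says whether counting used strand, so reads of the 2 genes cannot be told apart.

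**Figure D2:**
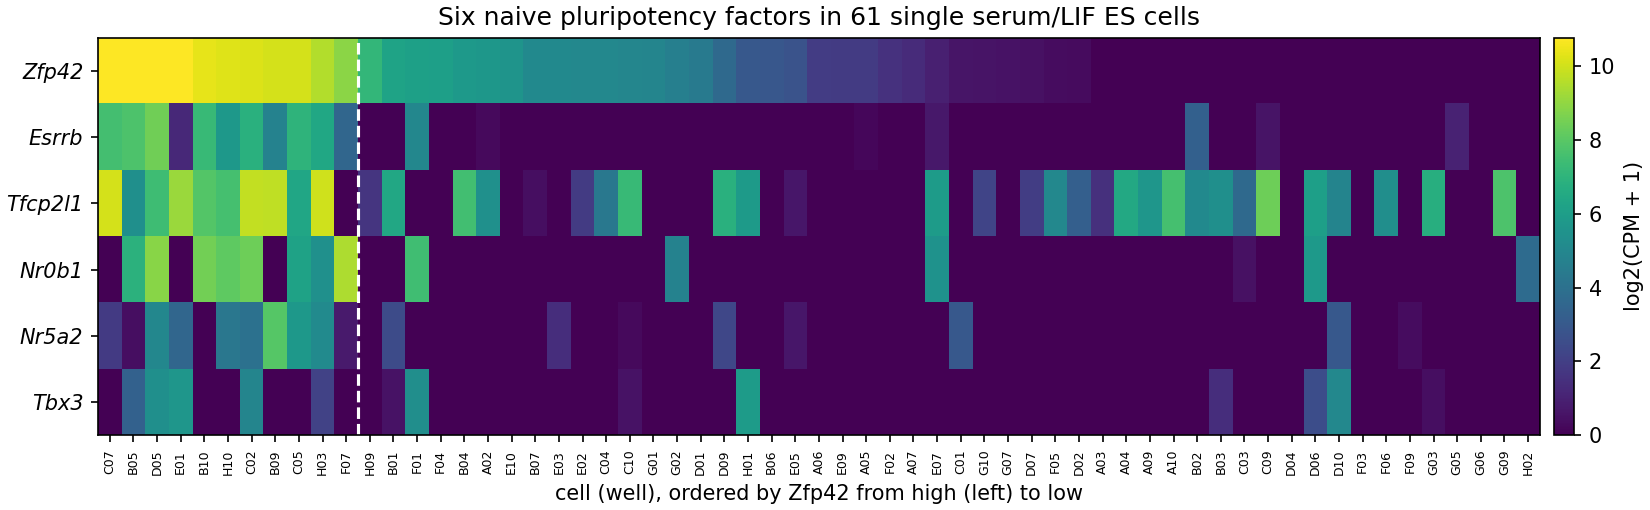
log2(CPM + 1) of the 6 genes (rows) in each of the 61 cells (columns, named by well), ordered by Zfp42 from high to low, with the dashed line at the Zfp42 gap. Esrrb, Nr0b1 and Nr5a2 are mostly found left of the line, whereas Tfcp2l1 is found on both sides.

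Levels were set between genes only per kilobase of exon. Zfp42 had a mean of 129 CPM per kb, Nr0b1 24.3, Tfcp2l1 12.4, Esrrb 3.69, Nr5a2 1.21 and Tbx3 0.672 CPM per kb. The SD over cells exceeded the mean for each gene (277 for Zfp42, 69.9 for Nr0b1, 26.2 for Tfcp2l1, 10.3 for Esrrb, 5.44 for Nr5a2 and 1.96 for Tbx3, all in CPM per kb), so no neighbours in this order differ beyond their spread between cells. This spread is not the error of a mean, and the order of the means was not tested.

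The 5 genes past the filter were found in fewer cells than the median filtered gene of like abundance, Nr5a2 by the least. The filter itself sets a floor of 10 cells under these medians. Zfp42 was detected in 42 cells, against a median of 60 cells for filtered genes within 1.2-fold of its mean CPM. Nr0b1 was detected in 14 cells, and none of 1026 filtered genes of like mean had fewer. The numbers for the other genes, each given first and then the median of genes of like mean, were 39 and 57 cells for Tfcp2l1, 18 and 32 for Esrrb, and 18 and 20 for Nr5a2.

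The squared coefficient of variation (CV2), a measure of spread relative to the mean, was set against the trend of all filtered genes at the same mean count. Zfp42 had a ratio of 13.0 to the trend, and 5 of 10868 genes had a higher one. The ratio was 8.51 for Tfcp2l1 (30 genes higher), 7.63 for Nr0b1 (44 genes higher), 4.03 for Esrrb (318 genes higher) and 3.57 for Nr5a2 (474 genes higher). Without the highest cell of each gene the ratios were 13.3 for Zfp42, 7.81 for Tfcp2l1, 5.89 for Nr0b1 and 3.04 for Esrrb. These ratios still used the trend fitted with all cells. For Nr5a2 the ratio without B09 was 0.690, and 8143 of 10868 genes treated in the same way had a higher one. Its place above the trend thus rested on that cell. Within plate rows A to D (33 cells) and E to H (28 cells) the ratio was 13.0 and 12.8 for Zfp42, 4.95 and 2.85 for Esrrb, and 5.06 and 1.28 for Nr5a2. In rows A to D, 9 genes were higher than Zfp42, 255 higher than Esrrb and 233 higher than Nr5a2. In rows E to H these numbers were 20, 3159 and 7402 of 10868 genes, so Esrrb and Nr5a2 did not stand out there.

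The question of a circuit is whether the factors mark the same cells. At 10 counts or more, 3 cells (C02, D05 and H03) held all 6 factors, 3 cells held 5 (B05, C05 and H10), 5 cells held 4 (B09, B10, C07, E01 and F01), 6 held 3, 9 held 2, 26 held 1 and 9 held none. Of the 11 cells with 4 or more factors, 10 were above the Zfp42 gap and the 11th was F01, with 155 counts of Esrrb, 885 of Nr0b1 and 199 of Tbx3. Among these 11 cells, B05, B09, E01, F01, H03 and H10 had a low chromosome 14 share, whereas B10, C02, C05, C07 and D05 did not. The overlap was not recounted without the cells of low share. Zfp42 is itself 1 of the factors counted, and the gap was set on its values. Each cell above the gap thus held 1 factor from the start, so part of this overlap is fixed. Zfp42 and Esrrb were both found in 11 cells, Zfp42 alone in 22, Esrrb alone in 1 and neither in 27. Zfp42 and Tfcp2l1 were both found in 19 cells, Zfp42 alone in 14, Tfcp2l1 alone in 17 and neither in 11. Esrrb thus came nearly always with Zfp42, whereas Tfcp2l1 was found without it in nearly as many cells as with it.

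Spearman's rho over the 61 cells was positive for all 15 pairs, from 0.21 to 0.62, with a median of 0.38. A rho of 0.3 or more was taken as the limit, and 11 of 15 pairs reached it. These values describe cells that share 1 plate and differ in depth, most cells tie at 0 for the sparse genes, and no p-value is given.

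Of the 5 other factors, 3 reached 0.3 with Zfp42, 4 with Esrrb, 3 with Tfcp2l1, 4 with Nr0b1, 5 with Nr5a2 and 3 with Tbx3. Over the 10863 filtered genes that are none of the 6, the share that reached it was 4.29% with Zfp42, 3.85% with Esrrb, 1.68% with Tfcp2l1, 2.89% with Nr0b1, 4.52% with Nr5a2 and 0.994% with Tbx3. No pair of factors had a rho of -0.3 or lower, which 6.5% of these genes had with Zfp42, 7.01% with Esrrb, 2.03% with Tfcp2l1, 5.64% with Nr0b1, 5.88% with Nr5a2 and 2.12% with Tbx3.

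**Figure D3:**
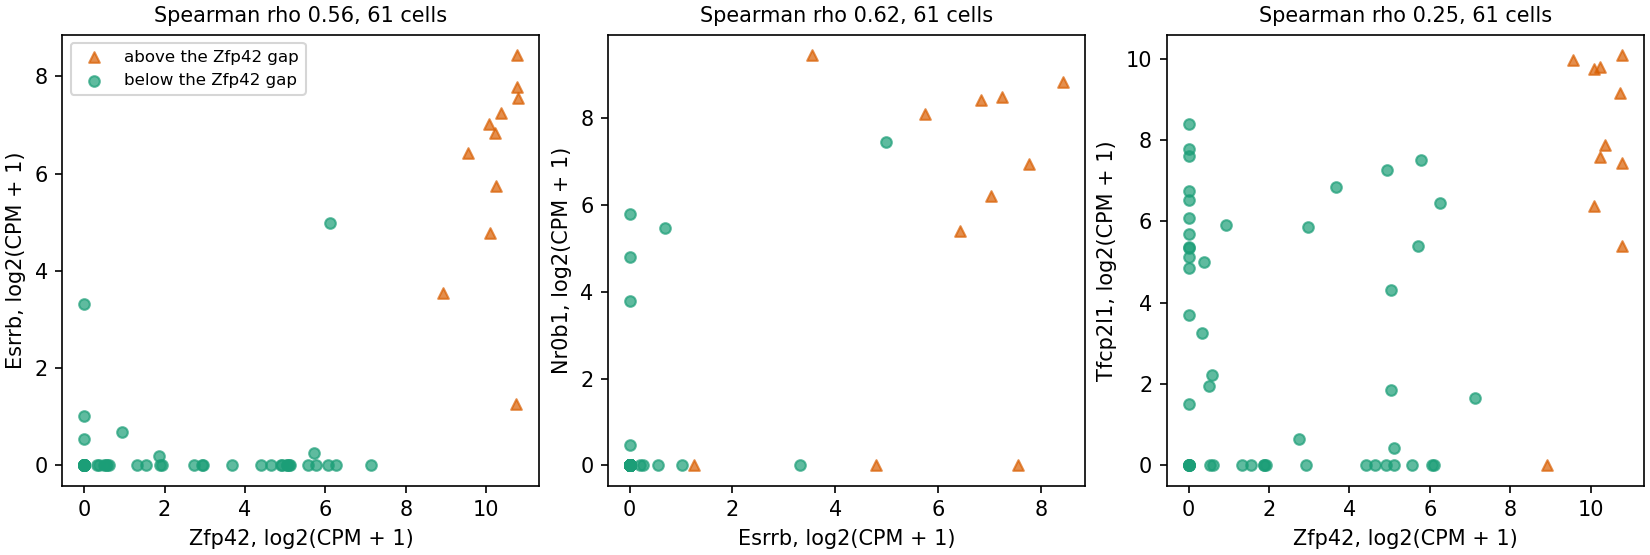
log2(CPM + 1) of 3 gene pairs, 1 point per cell, with cells above the Zfp42 gap as triangles and cells below it as circles. Most Esrrb signal lies in the triangles. Tfcp2l1 is found in both kinds of cell, with its highest values in the triangles.

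The closest pair was Esrrb and Nr0b1, with a rho of 0.62 (0.57 in plate rows A to D, 0.71 in rows E to H), and of 0.20 in the 10 cells with a count of both. No filtered gene had a higher rho with Nr0b1 than Esrrb did, and 9 genes had a higher rho with Esrrb than Nr0b1 did. Zfp42 and Esrrb had a rho of 0.56 (0.60 in rows A to D, 0.51 in rows E to H), and in the 15 cells with a count of both it was 0.78. Zfp42 and Nr5a2 had 0.53, Esrrb and Nr5a2 0.49, Esrrb and Tfcp2l1 0.44, Tfcp2l1 and Nr5a2 0.40, and Zfp42 and Nr0b1 0.39. In cells with a count of both genes the values were 0.28 for Zfp42 and Nr5a2 (16 cells), -0.05 for Esrrb and Nr5a2 (10 cells), 0.15 for Esrrb and Tfcp2l1 (14 cells), 0.38 for Tfcp2l1 and Nr5a2 (14 cells) and 0.48 for Zfp42 and Nr0b1 (11 cells). The 4 pairs under the limit were Esrrb and Tbx3 (0.27), Zfp42 and Tfcp2l1 (0.25), Zfp42 and Tbx3 (0.23) and Tfcp2l1 and Nr0b1 (0.21).

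The pooled correlations were not seen within the sets of cells on either side of the Zfp42 gap. Over the 50 cells below it the median of the 15 values was 0.03 (-0.18 to 0.32), 9 of 15 were positive and 1, Tfcp2l1 and Tbx3 at 0.32, reached 0.3. Over the 11 cells above it the median was 0.00 (-0.60 to 0.59). Within these 11 cells Zfp42 and Esrrb had a rho of 0.59, Zfp42 and Nr5a2 -0.42, and Tfcp2l1 and Nr0b1 -0.60, the lowest of all pairs. Splitting the cells on Zfp42 after its values were seen narrows its own range in each set, and takes most cells with Esrrb, Nr0b1 and Nr5a2 out of the lower set. Low values within the sets are thus partly fixed by the split, also for pairs without Zfp42. Without the 7 cells of low chromosome 14 counts all 15 values stayed positive, with a median of 0.27 (0.07 to 0.47), and 6 of 15 reached 0.3. Esrrb and Nr0b1 then had 0.47, Esrrb and Tfcp2l1 0.41, Zfp42 and Nr5a2 0.37 and Zfp42 and Esrrb 0.30, while Esrrb and Nr5a2 (0.27), Tfcp2l1 and Nr5a2 (0.26) and Zfp42 and Nr0b1 (0.21) fell short of the limit.

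**Figure D4:**
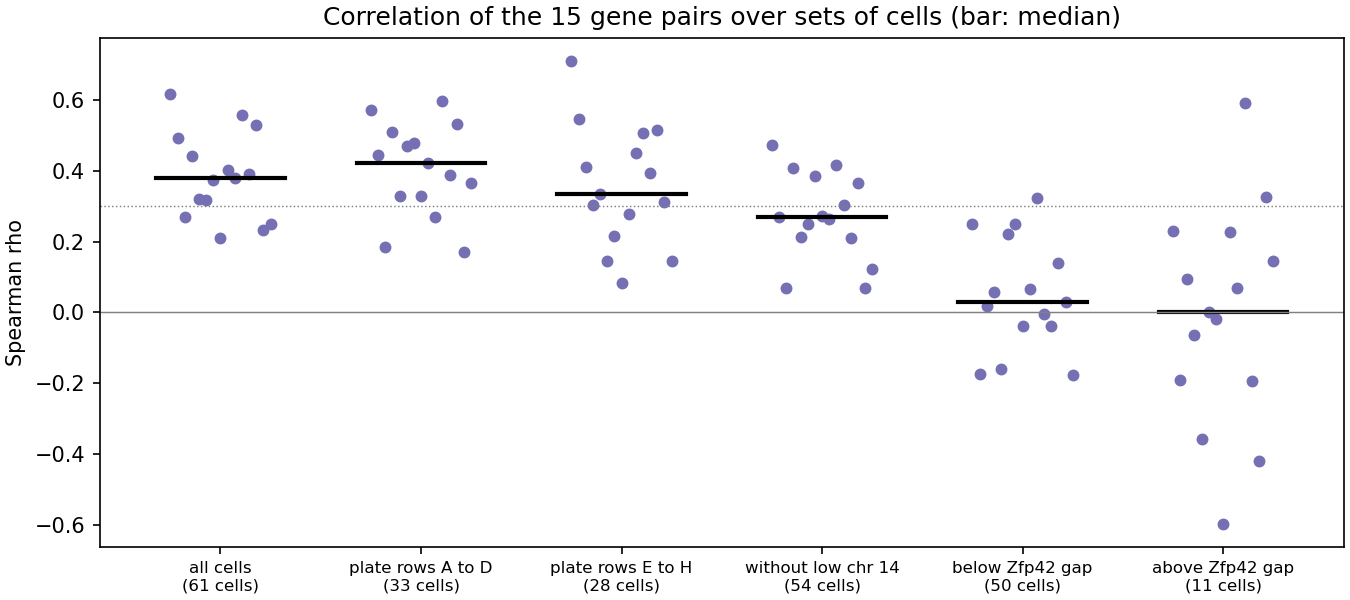
Spearman's rho of the 15 gene pairs (points) and their median (bar) over all cells, within plate rows, without the 7 cells of low chromosome 14 share, and below and above the Zfp42 gap; the dotted line is 0.3. The medians are 0.38, 0.42, 0.34, 0.27, 0.03 and 0.00, in this order.

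Cell quality moved with the factors to differing extents, most of all with Nr0b1. The rho with the number of genes detected was -0.18 for Zfp42, -0.27 for Esrrb, -0.01 for Tfcp2l1, -0.30 for Nr0b1, -0.21 for Nr5a2 and -0.27 for Tbx3, and with the mitochondrial share it lay between 0.04 and 0.28. After the ranks were corrected for genes detected the median of the 15 pairs was 0.36 and 9 pairs reached 0.3, against 11 before, with Nr0b1 and Nr5a2 at 0.28 and Nr0b1 and Tbx3 at 0.26. Corrected for the mitochondrial share the median was also 0.36 and again 9 pairs reached 0.3. Without the cells of fewest genes (B10) and highest mitochondrial share (F07), both above the Zfp42 gap, the median was 0.39. The share of counts from the factor's own chromosome had a rho of -0.32 with Zfp42 (chromosome 8) and -0.34 with Nr0b1 (chromosome X), and lay between -0.18 and 0.01 for the others. What part these measures have in the correlations was not tested.

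The other genes of the network were taken from lists by role. These lists were chosen with earlier results of these data known. The shares given for each list, here and below, thus describe these cells and are no independent support. Of 20 further naive genes, 17 passed the filter, and 15 of these had a rho of 0.3 or more with at least 1 factor, against 9.77% of all filtered genes. Counted over gene and factor pairs, 50 of 102 (49%) reached 0.3 and 2 were at -0.3 or lower, against 3.04% and 4.86% over all genes. The mean rho with the 6 factors was highest for Klf2, a Krüppel-like factor of the naive state (0.48), then Tdh, the threonine dehydrogenase of ES cells (0.41), and Fbxo15, an ES cell F-box gene and OCT4 target (0.41). Klf2 was detected in 23 cells and had a rho of 0.65 with Esrrb, 0.58 with Nr0b1, 0.54 with Zfp42, 0.49 with Nr5a2, 0.36 with Tbx3 and 0.29 with Tfcp2l1. Dppa3 (Stella) had a mean rho of 0.31, Klf4 0.27 and Nanog 0.21, and for Nanog the value was 0.35 in plate rows A to D and 0.02 in rows E to H. The lowest of the list were Mael (0.05) and the Nodal co-receptor gene Tdgf1 (-0.18), which had a rho of -0.40 with Tfcp2l1.

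In the core pluripotency list, 22 of 66 pairs (33.3%) reached 0.3, against 3.04% over all genes, and none was at -0.3 or lower, against 4.86%. Kat6b, a histone acetyltransferase gene, had the highest mean rho, 0.46, and reached 0.3 with all 6 factors. Tet1, a methylcytosine dioxygenase gene, had 0.39, Ncoa3, a nuclear receptor co-activator gene that works with ESRRB, 0.36, and Sox2 0.28. Pou5f1 had 0.08, and Lin28a (-0.08) was the lowest, with 0.10 in plate rows A to D and -0.33 in rows E to H. Pou5f1, found in every cell with 74.1 to 3029 CPM, thus hardly followed the factors, whereas Sox2 had a rho of 0.46 with Zfp42 and 0.41 with Esrrb.

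For genes of the inputs to the circuit the share of pairs at 0.3 or more was 2.08% in the LIF and STAT3 list, 0% in the Wnt and TCF3 list and 4.17% in the FGF and ERK list, near the 3.04% over all genes. The share at -0.3 or lower was 10.4%, 14.8% and 22.2% in the same order of lists, against 4.86% over all genes. In the LIF and STAT3 list, 1 of 48 pairs reached 0.3, Lifr (the LIF receptor) with Nr0b1 at 0.32, and 5 were at -0.3 or lower, 4 of them pairs of Junb. The highest mean rho of the list were those of Lifr (0.18), its co-receptor gene Il6st (0.14) and Stat3 (0.09), and the lowest those of the kinase gene Jak1 (-0.25) and Junb (-0.32). In the Wnt and TCF3 list, 0 of 54 pairs reached 0.3 and 8 were at -0.3 or lower. These 8 came from 3 of the 9 filtered genes of that list, where 15.7% of all filtered genes had at least 1 such pair. Tcf7l1, the repressor of the circuit, had a mean rho of 0.06, the highest of the list, ahead of Lef1 (-0.04) and Axin1 (-0.05), while the Wnt target gene Axin2 had -0.34 and Tcf7 -0.27. For Tcf7l1 the mean rho was -0.08 in plate rows A to D and 0.24 in rows E to H. In the FGF and ERK list, 3 of 72 pairs reached 0.3 and 16 were at -0.3 or lower. These 16 came from 5 of the 12 filtered genes of that list. Ptpn11, the SHP2 phosphatase gene of the pathway, had -0.32 and Dusp6, a feedback phosphatase gene induced by ERK, -0.30, whereas Etv5 had 0.18, Sos1 0.14 and Grb2 0.09.

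Pairs with genes of later states included none at 0.3 or more in either of the lists used. Among mesendoderm genes, 16 of 42 pairs (38.1%) were at -0.3 or lower, against 4.86% over all genes, and none reached 0.3, against 3.04%. The lowest mean rho were those of Wnt3 (-0.40) and T, the Brachyury gene (-0.35), and the least low those of Cdx2 (-0.16), Mixl1 (-0.19) and Fgf8 (-0.25). Among formative and primed genes, 12 of 66 pairs (18.2%) were at -0.3 or lower, against 4.86% over all genes, and none reached 0.3. These 12 pairs came from 3 of the 11 filtered genes of that list, Pou3f1 (OCT6, mean rho -0.35), Krt18 (-0.26) and Krt8 (-0.22). Otx2 had 0.05, Dnmt3a 0.02 and Lef1 -0.04. The list headed REX1 partners does not state how each gene is linked to REX1. In it Rlim, which encodes the ubiquitin ligase RNF12 that targets REX1 for degradation, had a mean rho of -0.30. Yy1, the parent gene of the REX1 family, had -0.09 and Zfp706 -0.01. Markers of other lineages that passed the filter included Nes (-0.31) and Pax6 (0.16) of neurectoderm, Gata3 (-0.07), Tfap2c (0.11), Cdx2 (-0.16) and Eomes (-0.26) of trophectoderm, and Col4a1 (-0.25) and Dab2 (-0.12) of primitive endoderm.

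**Figure D5:**
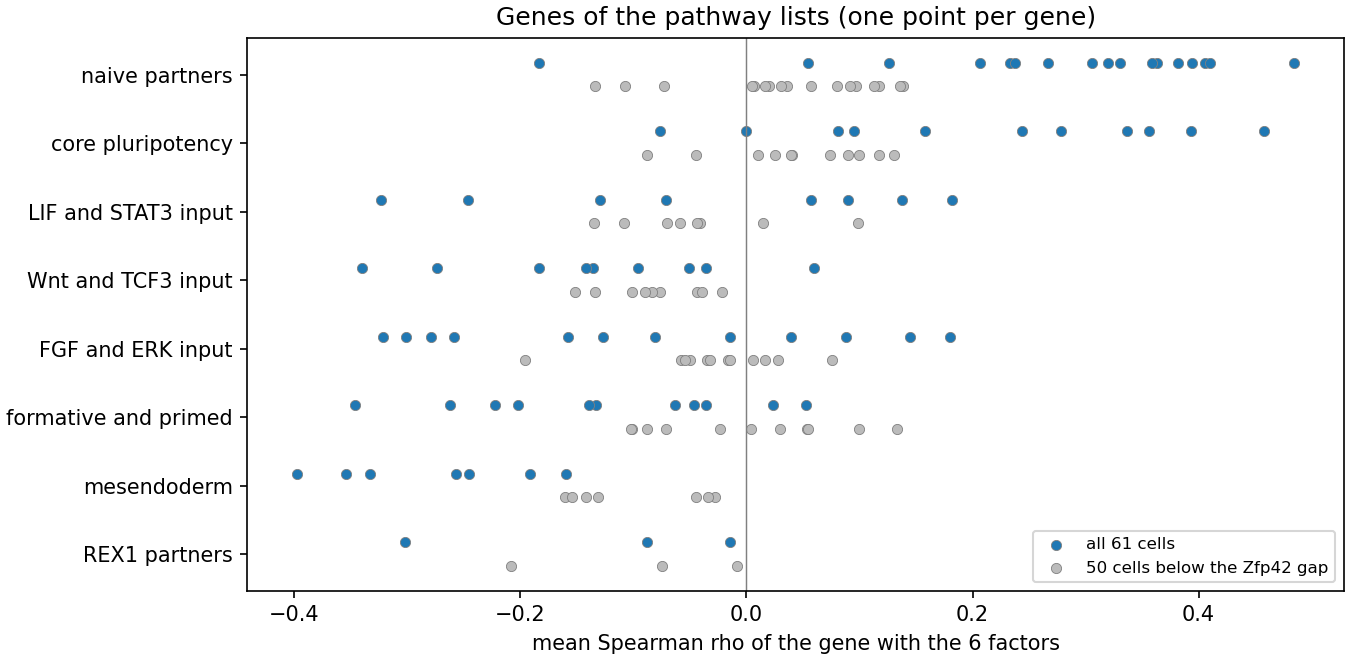
Mean Spearman's rho of each filtered list gene with the 6 factors (1 point per gene) over all 61 cells (blue) and over the 50 cells below the Zfp42 gap (grey). Naive partners reach 0.48 over all cells and 0.14 below the gap, and mesendoderm genes reach -0.40 over all cells and -0.16 below it.

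The list values were also smaller below the gap, where the split leaves few cells with Esrrb, Nr0b1 or Nr5a2, so part of this is fixed by the split. Over these 50 cells, 4.90% of naive pairs reached 0.3, against 2.06% over all genes, and 4.76% of mesendoderm pairs were at -0.3 or lower, against 1.63% over all genes. The mean rho of Klf2 was then 0.12, that of Wnt3 -0.15 and that of Kat6b 0.12. Without the cells of low chromosome 14 counts, 23.5% of naive pairs reached 0.3, against 2.52% over all genes, and 19% of mesendoderm pairs were at -0.3 or lower, against 2.57% over all genes. The mean rho was then 0.33 for Klf2, 0.27 for Tdh, 0.22 for Fbxo15, 0.09 for Dppa3, 0.15 for Klf4 and 0.12 for Nanog. It was 0.30 for Kat6b, 0.24 for Tet1, 0.21 for Ncoa3 and 0.13 for Sox2, and -0.31 for Wnt3, -0.24 for T, -0.24 for Axin2, -0.21 for Pou3f1, -0.19 for Dusp6 and -0.21 for Rlim.

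The genes whose pattern was most like each factor were ranked by rho over the 61 cells among filtered genes, without regard to function. For Zfp42 they were Rex2 (0.73), Zfp600 (0.71), Rpl39l (0.71), Atp5g1 (0.68), a subunit gene of the mitochondrial ATP synthase, and Zfp981 (0.68). Rex2, Zfp600 and Zfp981 belong to a family of zinc finger genes with close copies on chromosome 4, so their counts may be split among family members. Among the lowest were Prtg, which encodes the surface protein protogenin (-0.67), and the proteasome activator gene Psme1 (-0.65). Each of these kept a rho of at least 0.3 in size over the 50 cells below the gap, which had a part in the ranking: 0.57 for Rex2, 0.36 for Rpl39l, -0.44 for Prtg and -0.48 for Psme1.

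For Esrrb the most alike were Hsd17b14, a steroid dehydrogenase gene (0.81), Rpl39l, a ribosomal protein gene copy (0.77), the unnamed ENSMUSG00000086967 (0.75), 4930548H24Rik (0.72) and Klf2 (0.65). The lowest were Top2b, a DNA topoisomerase gene (-0.62), Pphln1, a gene of the HUSH silencing complex (-0.60), and Prtg (-0.58). Below the gap Hsd17b14 kept 0.58, whereas Klf2 had 0.18 and Rpl39l 0.27. Hsd17b14 was detected in 23 cells and reached 393 CPM.

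For Tfcp2l1 the values were lower, and the most alike included AU018091 (0.53), Hmces (0.51), which encodes a protein that guards abasic DNA sites, Uchl1 (0.50) and Lypla1 (0.50). The lowest were the chromatin remodeller gene Chd1 (-0.52), the adenosine kinase gene Adk (-0.51) and Mir7029 (-0.45), a short row with at most 16.7 CPM. For Nr0b1 Esrrb itself came first (0.62), followed by Klf2 (0.58), Rpl10l (0.57), Ubxn2a (0.56) and the tubulin-binding stathmin gene Stmn1 (0.55); the lowest were the ion channel gene Piezo2 (-0.55), the claudin gene Cldn6 (-0.52) and the interferon-inducible GTPase gene Irgm1 (-0.52). For Nr5a2 they were Mtf2, an accessory gene of Polycomb repressive complex 2 (0.62), Chchd10 (0.62), Gm13929 (0.60), the mismatch repair gene Msh6 (0.60) and Gm867 (0.60), and the lowest were Soat1 (-0.60), Oat (-0.58) and Ssbp3 (-0.58).

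Without the 7 cells of low chromosome 14 share each of the most and least alike genes named here kept a rho of at least 0.3 in size. The remaining cells had a part in the ranking, so this is no independent check. Psme1, Top2b and Adk, each among the 3 lowest of 1 factor, lie on chromosome 14, the chromosome of low share in 7 cells. Without those 7 cells the rho was -0.55 for Psme1 with Zfp42, -0.54 for Top2b with Esrrb and -0.40 for Adk with Tfcp2l1.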

How the data were processed

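Messenger RNA of single E14 cells was measured by G&T-seq with Nextera XT libraries, per the labels' protocols. The deposited raw table holds whole-number counts per gene for 61 serum/LIF cells; GSNAP, SAMtools 0.1.18, bedtools 2.19.1, DESeq2 and GRCm38 are named in the submitters' processing notes. No source used here states the counting rule or whether strand was used. The deposited normalized table holds a signal that the authors scaled from the counts; its 61 factors run down the rows, and 1.65% of values match their own cell's factor (relative tolerance 0.0001), so it served as an alternative only. The labels name no molecular identifiers, so intervals and limits cover counting error only.

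Of 36300 rows, 95 spike-in rows were left out and CPM was computed on the sum over genes. None of the 61 cells with counts was left out, and no doublet caller was run, since the labels give 1 cell per well. Filtered genes had at least 10 counts in at least 10 cells. Spearman's rho and counts of cells were computed with pandas 2.3.3, CV2 trends with modelGeneCV2 of scran 1.30.0 (ratio only), and other library sizes with edgeR 4.0.16 and DESeq2 1.42.0. Plate rows A to D and E to H stood in for batches, since the labels give none. The correlation step was tested on simulated data. No p-value was computed, because each sample is 1 cell and no separate cultures are named.

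The text names the 6 factors, for each filtered factor the 5 genes of highest and 3 of lowest rho, and in each list the 3 highest and 2 lowest by mean rho, plus Nanog, Pou5f1, Sox2, Klf4, Klf2, Dppa3, Stat3, Tcf7l1 and Yy1; other genes were chosen after their values were seen, and some genes that the rule names are not reported here. The members and lists were chosen with earlier results of these data known. Alternatives were other scalings, thinning to the lowest total, rank correction for genes detected and mitochondrial share, sets of cells and the normalized table. Coordinates are from GENCODE on GRCm38, promoters from RefSeq on GRCm38.p6.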

Additional observations from a re-analysis of the deposited data

How the results depend on the processing

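Detection, mean CPM and the correlations were recomputed under other settings. The median rho of the 15 pairs, 0.38 over all cells, moved by more than 0.1 with Pearson's r of log2(CPM + 10) (0.53) and in cells with a count of both genes (0.28). Of the settings added after the data had been seen, it was 0.0291 below the Zfp42 gap, 0.00 above it and 0.27 without the cells of low chromosome 14 share. The percentage of naive pairs at 0.3 or more, 49, was 4.90 below the gap and 23.5 without those cells. Of the pairs at 0.3 or more over all cells, the sign turned below the gap for Zfp42 with Esrrb (-0.00417) and with Nr0b1 (-0.0368), and for Nr5a2 with Esrrb (-0.17) and with Nr0b1 (-0.16). Above it, among the same pairs, the sign turned for Zfp42 with Nr0b1 (-0.19) and with Nr5a2 (-0.42), Esrrb with Tfcp2l1 (-0.0636) and with Nr5a2 (-0.19), and Nr5a2 with Nr0b1 (-0.36) and with Tbx3 (-0.0198). In cells with a count of both genes it turned for Nr5a2 with Esrrb (-0.0545) and with Nr0b1 (-0.50). Of the pairs under 0.3, Tfcp2l1 was negative with Zfp42 (-0.18) and with Nr0b1 (-0.04) below the gap and with Nr0b1 (-0.60) above it, and Esrrb with Tbx3 (-0.26) in the 6 cells with a count of both. The causes were not tested. The CV2 ratio of Nr0b1 was 12.9 in plate rows E to H; that of Nr5a2 was 1.28 there, 5.84 against the trend of all genes with a count and 0.690 without its highest cell. After correction for genes detected, 3 of the 5 genes most like Nr0b1 were the same. Of 90 recomputed main values, 78 stayed within set limits. These were 0.1 for a rho, 1.5-fold for a count or ratio and 1 SD for a mean CPM. The last limit is wide, since the SD over cells exceeded the mean for each factor. Of 434 further values, which include those of single pairs, 301 stayed within the limits and 121 moved past them. The other 12 were pairs at 0.3 or more over all cells whose sign turned. No paired analysis was possible because only 1 group was analysed. A gene at 0 in a cell may be below what 3 counts of that cell's total can show.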

Other observations

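Genes next to each other on chromosome 4 recurred among those most like Zfp42. Of its 20 most alike genes, 10 lie in the stretch from 144391674 to 147947314 of that chromosome (GRCm38), among them Rex2, Zfp600, Zfp981, Zfp978, Zfp534 and Zfp990, a region picked after these names had been seen. Of 41 filtered genes there, 24 had a rho of at least 0.3 with Zfp42, where 4.29% of all filtered genes did, 21 with Nr5a2 (4.52% of all), 19 with Esrrb (3.85%), 17 with Nr0b1 (2.89%), 4 with Tbx3 (0.994%) and 2 with Tfcp2l1 (1.68%). The genes of this cluster are close copies, and no source used here says how reads that fit several copies were counted, so these 41 genes are not independent.

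Of the filtered genes other than the factors, 15 had a rho of at least 0.3 with all 6: AU018091, Atp5g1, Chchd10, Dlc1, Eif2s2, Epop, Gm867, Kat6b, Kit, Lypla1, Mok, Rpl10l, Rpl39l, Sod2 and Twf2. Kit encodes the stem cell factor receptor and Epop a protein bound to Polycomb repressive complex 2. Chchd10 and Gm867 overlap and may share reads, so they are not independent. In the other direction 9 genes had -0.3 or lower with all 6, among them Ddr1, Fndc3c1, Ghr, Piezo2, Prtg, Rhobtb3, Txndc5 and Zcrb1. These genes were listed after their values had been seen.

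The nearest protein-coding genes on either side of each factor were also looked at after the factors' values. Triml2, 101 kb from Zfp42 and detected in 19 cells, had a rho of 0.40 with it, and Triml1, 154 kb away and in 13 cells, had 0.32. Ift43 had -0.31 with Esrrb, and no other measured neighbour reached 0.3 in size. The 4 neighbours of Nr0b1 were at 0 in every cell.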
